A study of Sus scrofa with 2 samples.

Results

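The genes described here are the cytosolic translation factors and the aminoacyl-tRNA ligases (aminoacyl-tRNA synthetases) of skeletal muscle in cloned newborn piglets. They were chosen by the protein description in the 2 expression tables. A gene entered when its description named a eukaryotic translation initiation factor, elongation factor 1 or 2, a eukaryotic peptide chain release factor, or a tRNA synthetase or ligase, and named neither a mitochondrial protein nor a kinase. Of 12535 genes with a read in either library, 67 matched the wanted words, and 21 of these were left out as 17 mitochondrial ligases and 4 kinases, so that 46 remained. These were 20 initiation entries, 5 elongation and release entries and 21 tRNA-charging entries. The tables gave 20 of the 46 only a provisional locus symbol and 10 no symbol, and 38 were matched to a RefSeq or Ensembl symbol by their identifier. The rule reads words, so KARS, EIF1, EIF4A1 and other factors that the tables describe differently are not among the 46 and are given separately.

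Translation of an mRNA starts when the eIF4 proteins bind its cap, eIF2 brings the initiator tRNA, and the eIF3 complex holds the small ribosomal subunit to the mRNA. Elongation factor 1 then delivers each charged tRNA to the ribosome, and release factors free the finished chain at a stop codon. The charged tRNAs are made by the tRNA ligases, each of which joins an amino acid to its own tRNAs, and in newborn muscle this machinery serves the fast accretion of contractile protein.

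The study set out to compare gene expression between abnormal and normal piglets made by somatic cell nuclear transfer. All were pigs delivered by caesarean section and sampled on day 1 after birth, and RNA of the biceps femoris, a thigh muscle, was sequenced. The abnormal cloned group was 1 library from the pooled RNA of 3 piglets with developmental failure, among whose defects the study's methods name an enlarged tongue, disability in standing or walking and a hernia at the umbilicus. The normal cloned group was 1 library from a pool of 4 piglets by the study's methods and of 3 by the labels. The 3 abnormal and 2 of the normal piglets came from embryonic fibroblasts of 1 male Large White donor, while the other 2 normal piglets came from ear fibroblasts of a different male, so phenotype and donor cannot be fully told apart. There is no replicate library in either group. Every test below therefore compares the 2 libraries and not the conditions, and every interval covers counting error only.

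The abnormal cloned library held 6.38 M reads on 11744 genes and the normal cloned library 6.52 M reads on 11720 genes. With no read in a library, the level of a gene is known only to be under about 3 reads, which is 0.470 or 0.460 RPM (reads per M reads of the library). In tests and sums such a gene was entered with 0 reads. Transcripts of the mitochondrial genome took 36.0% of the abnormal reads and 46.1% of the normal reads. Their part in the ratios of other genes was not tested beyond the alternative totals given with the results. Of 10 skeletal muscle fibre markers, 5 were found by symbol, on 4 entries, with a summed level of 45234 RPKM (RPM per kilobase of transcript) for abnormal clones and 41390 for normal clones, and none was differentially expressed. ACTA1 made up most of that sum, at 42258 and 37387 RPKM. The other entries had log2 ratios below 0, at -0.49 (MYH1 and MYH8), -0.08 (MYH2) and -0.55 (RYR1). The list did not hold TNNC1, MLC2V or TPM3, which the study reported as down-regulated in the abnormal group. CKM, DES, TNNT3, MYH4 and TTN were not found under those symbols. Red blood cell markers (3 of 5 found) summed to 480 and 693 RPKM, plasma or liver markers (4 of 5) to 41.9 and 61.5, fibroblast markers (4 of 5) to 1356 and 1508, endothelial markers (3 of 4) to 41.4 and 38.9, leukocyte markers (4 of 4) to 6.89 and 10.7, and adipocyte markers (2 of 4) to 0.381 and 0, with PLIN1 and LEP at no read in the normal library. Of all these markers, only 2 were differentially expressed, both plasma proteins that were lower in the abnormal library. ALB had 12 reads against 271 and FGB had 4 against 36. Their part in the results on translation genes was not tested. In bulk RNA, fewer cells of a type and less RNA per cell cannot be told apart.

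Translation factors and tRNA ligases took a larger share of the abnormal library. Together the 46 entries held 70280 reads there, which was 1.102% of the total, and 46461 reads in the normal library, which was 0.713%. Of the reads outside the mitochondrial genome they took 1.72% and 1.32%. A single gene, EEF1A1, supplied much of this gap, and without it the remaining 45 entries held 41268 and 32942 reads. The other entries were spread over a wide range of levels, and 6 had under 10 reads in at least 1 library.

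A gene was called differentially expressed at a false discovery rate (FDR) of at most 0.001 by the Audic-Claverie test of the 2 read counts, adjusted over all 12535 genes, together with an absolute log2 ratio of RPKM, abnormal over normal, of at least 1. By this rule 13 of the 46 entries were up-regulated in abnormal clones and 0 were down-regulated, beside 12.0% of all genes called higher and 1.45% called lower. The 13 were 4 initiation entries (EIF4E, EIF4E3, EIF4G3 and eIF4E-binding protein 2), 2 elongation entries (EEF1A1 and EEF1E1) and 7 ligases (AARS, IARS, NARS, CARS1, SARS, DARS and GARS). Because a call depends on depth, deeply read genes are the nearer comparison. Among genes with a sum of at least 100 reads over both libraries, 23.2% of 4953 were called higher and 2.52% lower, and 12 of the 36 members of that depth were called higher. By FDR alone, 25 members were higher and 1, EIF5B, was lower. The share of all genes by FDR alone was not counted, so these counts have no background beside them. Ratios of all genes leaned the same way, with 5144 above 0 and 2349 below it among genes with 10 or more reads in each library. For the count of 0 down-regulated members, 2 (EIF5B and EEF1B2) had an unadjusted p under 0.05 in the Audic-Claverie test, Fisher's exact test likewise gave 2, and the edgeR exact test, given an assumed coefficient of variation of 0.4, gave 0.

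The ratios of all genes were not centred on 0. Over the 7493 genes with 10 or more reads in each library, ratios had a log2 median of 0.36, and the 40 members of that depth had a median of 0.76. Of these 40, 34 lay above 0 and 6 below it, while 27 lay above the median of all genes and 13 below it. When the abnormal library was scaled by that median ratio, 6 members stayed up-regulated (EIF4E, eIF4E-binding protein 2, CARS1, NARS, IARS and AARS) and 0 became down-regulated, beside 6.48% of all genes called higher and 3.97% called lower. TMM factors left 5 up-regulated (beside 5.99% of all genes, with 4.37% lower) and totals without mitochondrial transcripts left 8 (beside 7.87%, with 2.94% lower), again with 0 members lower. A variation of 0.2 between pooled libraries, assumed in the edgeR exact test, left 2 members (IARS and AARS, beside 1.94% of all genes, with 0.16% lower), and 0.4 left 0 (beside 0.016%, with 0.00798% lower). A size threshold of 0.5 in place of 1 gave 23 up-regulated members beside 17.1% of all genes, and 0 lower beside 3.62%. Medians for the classes were 0.66 for initiation, 0.75 for elongation and release, and 0.90 for tRNA charging. All 3 class medians were above that of all genes, and the spread within each class was wider than the gaps between classes.

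**Figure D1:**
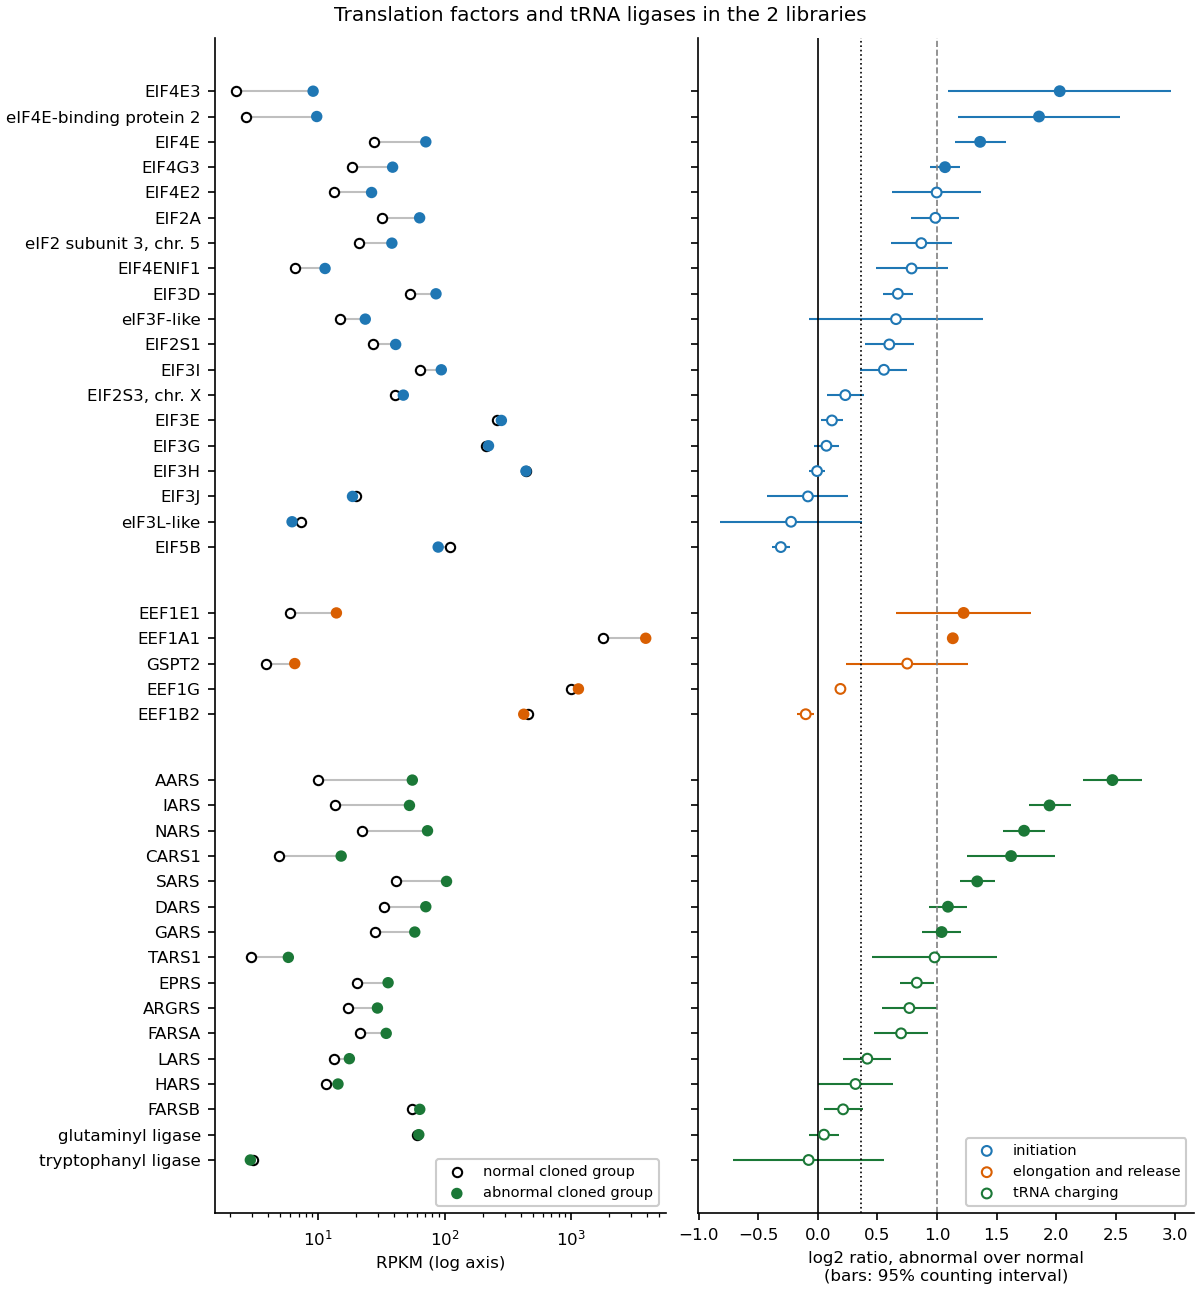
Levels and log2 ratios of the 40 translation factors and tRNA ligases with 10 or more reads in each library. The left panel shows RPKM on a log axis for the normal (open) and abnormal (filled) cloned library, and the right panel shows the log2 ratio with its 95% counting interval, filled where the gene was called, with a solid line at 0, a dotted line at the median of all genes (0.36) and a dashed line at the threshold of 1. AARS has the highest ratio (2.47) and EIF5B the lowest (-0.31).

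Of the 20 initiation entries 20% were called higher, beside 12.0% of all genes and 23.2% of those with 100 or more reads over both libraries. The 4 calls all fell in the eIF4 group, which holds cap-binding proteins and their partners. Its 6 entries had ratios from 0.79 to 2.03 with a median of 1.21, and all were above the median of all genes. EIF4E (chromosome 8, 104074224-104126823, plus strand, on the Sscrofa9 build used for every position here), the protein that binds the mRNA cap, had 614 abnormal and 244 normal reads, or 71.1 and 27.6 RPKM. It was 2.57 times as high in the abnormal library, a log2 ratio of 1.36 (95% interval 1.15 to 1.58, FDR 8.92e-38). EIF4E3 (chromosome 13, 45060311-45081827, minus strand), a divergent cap-binding relative, was much less abundant, with 44 and 11 reads or 9.11 and 2.23 RPKM. The abnormal library was again the higher one (log2 ratio 2.03, 1.09 to 2.97, FDR 3.27e-05), with the wide interval that 11 reads allow.

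The third called entry of the group is described as eIF4E-binding protein 2 (ENSSSCG00000010268, chromosome 14, 76447309-76494374, plus strand), of the family that holds EIF4E away from its scaffold when not phosphorylated. It had 78 reads against 22, or 9.74 and 2.69 RPKM, a log2 ratio of 1.86 (1.18 to 2.53, FDR 6.48e-08). Thus both the cap-binding protein and this inhibitor of it were higher in the abnormal library. The difference between their log2 ratios was 0.49 with a 95% counting interval of -0.22 to 1.21, so at this depth no unequal change of the pair was detectable. EIF4G3 (chromosome 6, 54352166-54751418, minus strand), a scaffold that joins EIF4E to the helicase and the ribosome, had 1450 and 707 reads, or 38.8 and 18.5 RPKM. Its log2 ratio of 1.07 (0.94 to 1.20, FDR 2.20e-60) stood just past the size threshold, and the lower end of its interval is under that threshold. EIF4G3 and EIF4E3 lost their calls with the median ratio and with TMM factors, and EIF4E lost its call with TMM factors, while eIF4E-binding protein 2 stayed called under all 3 scalings.

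The other 2 entries of the eIF4 group were also higher in the abnormal library without being called. EIF4E2, a cap-binding protein that does not recruit the scaffold, had 168 and 86 reads, or 26.4 and 13.3 RPKM. Its log2 ratio of 0.997 (0.62 to 1.37, FDR 7.89e-07) put it just outside the size threshold. EIF4ENIF1, which carries EIF4E into the nucleus and to repressed mRNAs, had 233 and 138 reads, at a log2 ratio of 0.79 (0.48 to 1.09). The ratio of EIF4E exceeded that of EIF4E2 by 0.37 (-0.07 to 0.80), a difference within counting error.

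None of the 9 entries for subunits of eIF3, the large complex that bridges mRNA and ribosome, was called, beside 12.0% of all genes called higher and 1.45% lower. The 8 with 10 or more reads in each library had a median log2 ratio of 0.09, from -0.23 to 0.67, and 3 were below 0 by library totals against 5 of 8 after scaling by the median ratio, by TMM factors or by totals without mitochondrial transcripts. EIF3H was the most abundant, with 3468 and 3563 reads or 441 and 443 RPKM, a log2 ratio of -0.01 (-0.08 to 0.06). Its interval was among the narrowest of the members, and the ratio became -0.37 with median scaling. EIF3E had 2000 and 1884 reads (282 and 259.6 RPKM, log2 ratio 0.12, 0.03 to 0.21) and EIF3G 1508 and 1467 reads (223 and 212 RPKM, log2 ratio 0.07, -0.03 to 0.17), and both ratios turned negative under each other scaling, to -0.24 and -0.29 with the median ratio.

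Subunits of eIF3 did not all keep the same ratio. EIF3D, a subunit that can itself contact the cap, had 1326 and 851 reads or 85.5 and 53.7 RPKM (log2 ratio 0.67, 0.55 to 0.79), and its ratio exceeded that of EIF3H by 0.68 (0.54 to 0.82), a gap that no choice of library total can alter. EIF3I had 500 and 348 reads (log2 ratio 0.55, 0.36 to 0.75), although its entry overlaps LCK and the library kit did not mark the strand of a read. The loosely bound subunit EIF3J had 132 and 143 reads (log2 ratio -0.08, -0.43 to 0.26). Of the entries known only by an identifier, the one described as subunit L (ENSSSCG00000000126) had 41 and 49 reads and the lowest eIF3 ratio, -0.23 (-0.82 to 0.37), and the one described as subunit F (ENSSSCG00000014586, a 246-base transcript) had 37 and 24 reads and a ratio of 0.66 (-0.08 to 1.39). Both intervals include 0. Each of these pairs was chosen after the values were seen, so no p is given for it. The rule did not admit EIF3A (0.73), EIF3M (0.83) or a separate entry named EIF3L (0.29), whose ratios were all above the eIF3 median of 0.09.

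The 3 entries for eIF2 subunits, which carry the initiator tRNA, were not called either and had a median log2 ratio of 0.60. EIF2S1, the alpha subunit on which the stress kinases act, had 467 and 315 reads or 41.0 and 27.1 RPKM (log2 ratio 0.60, 0.39 to 0.81). The gamma subunit EIF2S3 on chromosome X had 723 and 630 reads or 47.2 and 40.2 RPKM, and its log2 ratio of 0.23 (0.08 to 0.38) lay under the median of all genes, so it turns negative with median scaling (-0.13). A second entry for this subunit on chromosome 5 (ENSSSCG00000000883, 80230788-80232164), whose 1368-base transcript fills nearly its whole genomic span, had 334 and 187 reads, at a log2 ratio of 0.87 (0.61 to 1.13). Reads of the 2 copies may be split uncertainly between them, since the aligner kept reads with up to 2 mismatches.

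Outside these complexes, EIF5B and EIF2A had ratios of opposite sign by library totals. EIF5B (chromosome 3, 50519455-50701400, minus strand), the GTPase that joins the ribosomal subunits at the end of initiation, had 2378 abnormal and 3017 normal reads, or 89.0 and 111 RPKM. It had the lowest ratio of the 40 members (-0.31, -0.39 to -0.23), passed the FDR (2.99e-14) but not the size threshold, and stayed negative under every scaling, at -0.67 with the median ratio. Its entry overlaps TXNDC9. EIF2A, an alternative carrier of initiator tRNA that is distinct from eIF2, had 572 and 295 reads or 63.5 and 32.0 RPKM, and its log2 ratio of 0.99 (0.78 to 1.19, FDR 2.85e-21) was just under the threshold.

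Elongation factor 1 showed a split between its subunits. EEF1A1 (chromosome 1, 97569384-97571718, minus strand), the GTPase that delivers charged tRNAs, had the highest level of all the members, with 29012 abnormal and 13519 normal reads, or 3905 and 1781 RPKM. It was 2.19 times as high in the abnormal library (log2 ratio 1.13, 1.10 to 1.16), with an FDR below the smallest number that could be computed. Its 1165-base entry overlaps MB21D1, and EEF1A1 has many processed copies in mammalian genomes among which reads may be shared. EEF1A2, the form of this factor that adult muscle uses, was not found under that symbol.

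The subunits that recharge EEF1A1 with GTP did not share this ratio. EEF1G, the gamma subunit, had 11233 and 10071 reads or 1146 and 1006 RPKM (log2 ratio 0.19, 0.15 to 0.23), which turned to -0.17 with median scaling. EEF1B2, the exchange subunit, had 2946 and 3233 reads or 423 and 454 RPKM, and its log2 ratio was -0.10 (-0.18 to -0.03). The ratio of EEF1A1 exceeded that of EEF1G by 0.94 (0.90 to 0.99) and that of EEF1B2 by 1.24 (1.16 to 1.31), and these gaps do not depend on how the libraries are scaled. These comparisons were likewise chosen after the values were seen.

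EEF1E1 (chromosome 7, 5434731-5452300, minus strand), named as an elongation factor but best known as a scaffold protein of the multi-synthetase complex, was up-regulated with 80 reads against 35, or 13.9 and 5.97 RPKM (log2 ratio 1.22, 0.65 to 1.79, FDR 9.96e-05). GSPT2, a GTP-binding release factor that acts with the stop-codon reader ETF1, had 79 and 48 reads or 6.52 and 3.88 RPKM (log2 ratio 0.75, 0.24 to 1.26, FDR 0.0174). It was not called, and it was the only release factor that the descriptions brought in. With median scaling EEF1A1 (0.77) and EEF1E1 (0.86) fell under the size threshold, and neither was called with any of the 3 other scalings.

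Of the 21 tRNA-charging entries 7 were up-regulated, with AARS, IARS and NARS in the lead, beside 12.0% of all genes and 23.2% of those with 100 or more reads. AARS (chromosome 6, 9727150-9747183, minus strand), which charges tRNA with alanine, had 859 abnormal and 158 normal reads, or 55.6 and 10.004 RPKM. It was 5.55 times as high in the abnormal library, the highest ratio of the 40 members (log2 ratio 2.47, 2.23 to 2.72, FDR 1.88e-118). IARS (chromosome 3, 37298266-37384403, minus strand), the isoleucine ligase, followed with 1225 and 325 reads or 52.7 and 13.7 RPKM (log2 ratio 1.95, 1.77 to 2.12, FDR 5.46e-125), and its entry overlaps NOL8. NARS (chromosome 1, 110057789-110074140, plus strand), the asparagine ligase, had 1066 and 328 reads or 73.3 and 22.1 RPKM (log2 ratio 1.73, 1.55 to 1.91, FDR 9.88e-93).

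A further 4 ligases were called with smaller ratios. CARS1 (chromosome 2, 449200-523057, minus strand), for cysteine, had 232 and 77 reads or 15.2 and 4.94 RPKM (log2 ratio 1.62, 1.25 to 1.99, FDR 9.87e-19). SARS (chromosome 4, 115358082-115375689, minus strand), for serine, had the highest abnormal RPKM of the 21 charging entries, 103.6 against 41.0, with 1294 and 523 reads (log2 ratio 1.34, 1.19 to 1.48, FDR 5.49e-77). DARS and GARS stood close to the threshold, and the intervals of both reach below 1. DARS (chromosome 15, 14296947-14371534, plus strand), for aspartate, had 991 and 475 reads or 71.0 and 33.3 RPKM (log2 ratio 1.09, 0.93 to 1.25, FDR 5.74e-43), and GARS (chromosome 18, 40739502-40779080, minus strand), for glycine, had 917 and 456 reads or 58.1 and 28.3 RPKM (log2 ratio 1.04, 0.88 to 1.20, FDR 9.74e-37). After scaling by the median ratio or by TMM factors, SARS, DARS and GARS were no longer called, while AARS, IARS, NARS and CARS1 still were.

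Other ligases were near equal in the 2 libraries. The glutamine ligase (LOC100525836, chromosome 13, 26666151-26673660, minus strand) had 975 and 962 reads or 62.5 and 60.4 RPKM. Its log2 ratio was 0.05 (-0.08 to 0.18), turning to -0.31 with median scaling. The ratio of AARS exceeded it by 2.42 (2.15 to 2.70) and that of NARS by 1.68 (1.46 to 1.90). The ratio of IARS likewise exceeded that of LARS, the leucine ligase with 454 and 348 reads (log2 ratio 0.41, 0.21 to 0.62), by 1.53 (1.26 to 1.80). Asparagine and glutamine are chemically alike, as are isoleucine and leucine, and in both pairs the ratios of the ligases differed by more than counting error. These pairs were picked after the values were seen, and the LARS entry overlaps RBM27.

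Phenylalanine is charged by an enzyme of 2 kinds of subunit, and both were measured. FARSB, the beta subunit, had 631 and 557 reads or 63.6 and 55.0 RPKM (log2 ratio 0.21, 0.05 to 0.38), which turned to -0.15 with median scaling. FARSA, the alpha subunit, had 397 and 250 reads or 34.5 and 21.3 RPKM (log2 ratio 0.70, 0.47 to 0.93), and its entry overlaps TRMT1. The ratio of FARSA was higher than that of FARSB by 0.49 (0.21 to 0.77), while the beta subunit had the higher RPKM in both libraries.

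Between these ends lay the ligases for proline and glutamate, arginine, histidine and threonine. EPRS, the bifunctional glutamate and proline enzyme, had 1105 and 635 reads (log2 ratio 0.83, 0.69 to 0.97, FDR 1.64e-30), the arginine ligase (ARGRS) 400 and 240 (0.77, 0.54 to 0.999), and HARS, for histidine, 179 and 147 (0.32, 0.00 to 0.63, turning to -0.04 with median scaling). TARS1, for threonine, had 83 and 43 reads, at a log2 ratio of 0.98 (0.45 to 1.51), and it missed both thresholds, with an FDR of 1.25e-03. The tryptophan ligase had the lowest ratio of the class. It is listed as 2 overlapping entries, of which ENSSSCG00000002518 had 38 and 41 reads (log2 ratio -0.08, -0.71 to 0.55) and WARS 5 and 7.

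The entries just inside the size threshold were therefore GARS, EIF4G3, DARS and EEF1A1, at 1.04 to 1.13, and those just outside it were EIF4E2, EIF2A and TARS1, at 0.98 to 0.997. Beside WARS, 5 entries had too few reads for a ratio to be read. TARSL2, a second threonine ligase, and a 273-base entry named SARS2, which is by name the mitochondrial serine enzyme though its description does not say so, had 1 read in each library. A 234-base lysyl ligase entry inside KARS (ENSSSCG00000002705) had 2 and 0 reads, a fragment of the EPRS gene (EPRS1) 1 and 0, and a second entry described like EIF3J (LOC100158180) 1 and 0. No cytosolic entry for methionine, tyrosine or valine was among the members.

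Several ligases work inside a multi-synthetase complex while others act free in the cytosol. The 8 entries of complex ligases, for arginine, aspartate, glutamine, glutamate and proline, isoleucine, leucine and lysine, included 2 called ones (IARS and DARS), and the 6 with 10 or more reads in each library had a median log2 ratio of 0.80, from 0.05 to 1.95. The 13 free entries included 5 called ones, and the 10 of that depth had a median of 1.01, from -0.08 to 2.47. The called shares were thus 25% and 38.5%. Of all genes 12.0% were called higher, and of those with 100 or more reads over both libraries 23.2%. Both sets of ligases spanned nearly the whole range of the class, and the difference between them was not tested.

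**Figure D2:**
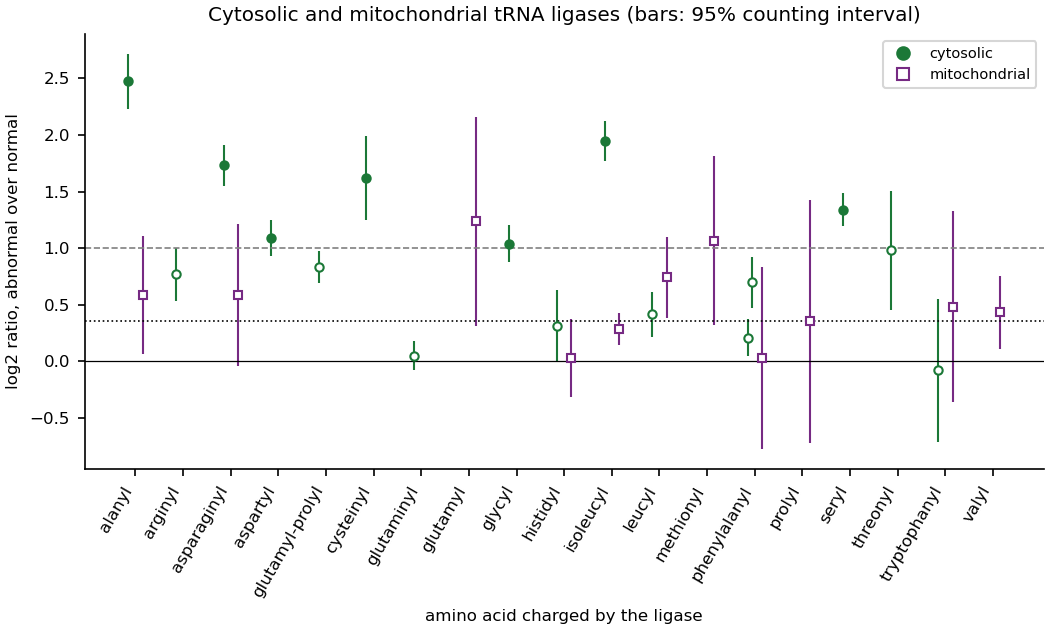
Log2 ratio, abnormal over normal, of cytosolic (green circles) and mitochondrial (purple squares) tRNA ligases with 10 or more reads in each library, by the amino acid charged. Bars are 95% counting intervals and filled symbols were called, with the dotted line at the median of all genes (0.36) and the dashed line at the threshold of 1. All 7 called ligases are in the set taken as cytosolic because its descriptions name no mitochondrial protein, and the mitochondrial ones span 0.03 to 1.24. The descriptions of GARS and SARS name no compartment.

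The mitochondrial ligases, which charge the tRNAs of the organelle and were left out by the rule, give a comparison for the same reaction. Of 17 entries 0 were called in either direction, beside 12.0% of all genes called higher and 1.45% lower, and the 11 with 10 or more reads in each library had a median log2 ratio of 0.48, from 0.03 to 1.24. They were read at lower depth, with a median over the 17 entries of 26 and 19 reads. They include VARS (177 and 134 reads, 0.43), a symbol of the cytosolic valine ligase, which was left out because its description says mitochondrial. For amino acids with both enzymes, the ratio of AARS exceeded that of AARS2 (72 and 49 reads) by 1.89 (1.31 to 2.47), that of IARS exceeded IARS2 (893 and 748 reads) by 1.66 (1.43 to 1.88), and that of NARS exceeded NARS2 (50 and 34 reads) by 1.14 (0.49 to 1.80). For histidine and leucine the differences were 0.28 (-0.19 to 0.75) and -0.33 (-0.74 to 0.09), and these intervals include 0. The larger cytosolic ratios were thus measured for 3 of these 5 amino acids, with FARSA, FARSB and the tryptophan ligase also within counting error of their mitochondrial counterparts. EPRS (0.83, 0.69 to 0.97), the cytosolic enzyme for glutamate and proline, was not paired in this way. For glutamate the mitochondrial EARS2 had the higher ratio (30 and 13 reads, 1.24, 0.31 to 2.16). For proline PARS2 had the lower one (15 and 12 reads, 0.35, -0.72 to 1.42). The intervals of both include the ratio of EPRS.

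**Figure D3:**
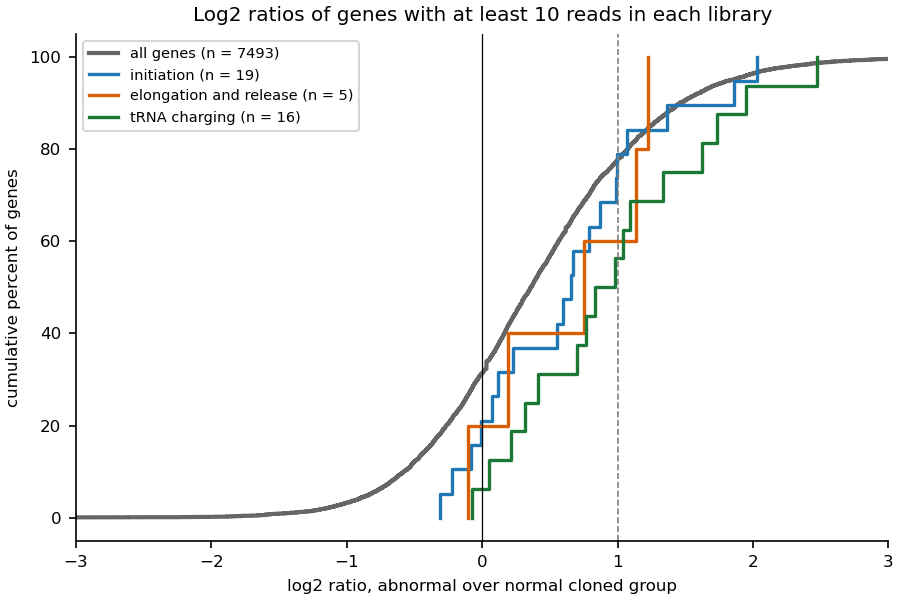
Cumulative percent of genes against log2 ratio, abnormal over normal, for all 7493 genes with 10 or more reads in each library (grey) and for the 19 initiation, 5 elongation and release, and 16 tRNA-charging entries of that depth. The dashed line marks the threshold of 1. The curve for tRNA charging lies to the right of that for all genes over most of its range, and the medians are 0.90 and 0.36.

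Ratios of all genes moved with transcript length, and this bears on the long ligase transcripts. In 5 bins of genes from the shortest to the longest transcripts, the median log2 ratio was 0.10, 0.25, 0.32, 0.49 and 0.64, and the percent called higher was 10.2, 15.02, 17.0, 21.7 and 27.2. Of the 40 members, 14 lay in the fourth bin (1869 to 2671 bases) with 6 called, and 6 in the longest bin with 2 called. When the running median over 500 genes of like length was subtracted, the median of the members became 0.31, against 0.22 for initiation, 0.30 for elongation and release and 0.40 for tRNA charging. The eIF4 group kept a median of 0.92 and the eIF3 subunits came to -0.10. After that subtraction 7 members were called higher (EEF1E1, eIF4E-binding protein 2, EIF4E3, CARS1, NARS, IARS and AARS) beside 7.38% of all genes, and EIF5B, at -1.02, was called lower beside 2.5% of all genes. For these calls only the size threshold used the corrected ratio. The FDR stayed that of the uncorrected test, whereas the scalings by library total reran it. Beyond this subtraction the part of length in the ratios was not tested.

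**Figure D4:**
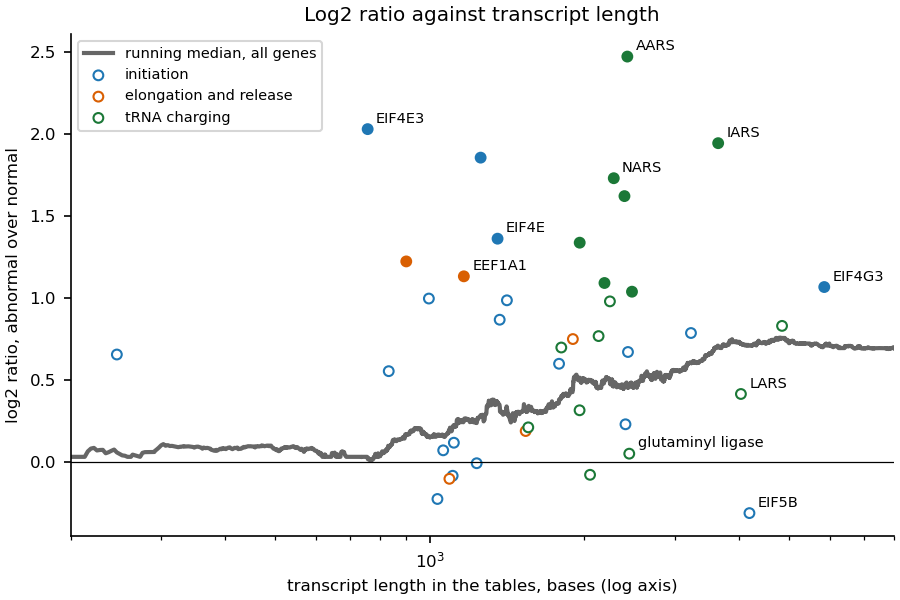
Log2 ratio, abnormal over normal, against transcript length in bases (log axis) for the members with 10 or more reads in each library, filled where called, with the running median over 500 genes in grey. AARS, IARS and NARS lie well above the grey line for their length, EIF4G3 lies nearer to it, and EIF5B lies below it.

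Translation factors whose descriptions did not match the rule were looked up by symbol after the tables had been read. Of 19 such entries with 10 or more reads in each library, 5 (26.3%) were called higher and 0 lower, with a median log2 ratio of 0.55. That share was near the 23.2% of all genes with 100 or more reads that were called higher. The called ones were EIF4G2, a scaffold relative that lacks the EIF4E site (11714 and 3925 reads, log2 ratio 1.61, 1.56 to 1.66), EIF4A2, a cap-complex helicase (5253 and 2525, 1.09, 1.02 to 1.16), EIF1AX, which aids scanning (253 and 82, 1.66, 1.30 to 2.01), ETF1, the stop-codon reader (592 and 214, 1.499, 1.27 to 1.72), and EIF2B5, a subunit of the exchange factor of eIF2 (263 and 116, 1.21, 0.90 to 1.53). EIF4A2 and EIF2B5 lost their calls under each of the 3 other scalings, which left 3 called. EIF4A1, the sister helicase of EIF4A2, was not called, with 2078 and 1208 reads (0.81, 0.71 to 0.92). Nor were the start-codon selection factors EIF1 (9324 and 7187 reads, 0.41, 0.36 to 0.45) and EIF1B (323 and 246, 0.42, 0.18 to 0.66), or EIF5A, which helps the ribosome past difficult peptide bonds (4286 and 3011, 0.54, 0.47 to 0.61). The eIF3 subunits EIF3A (0.73), EIF3M (0.83) and EIF3L (0.29) were likewise not called, nor were KARS (0.25, 3419 and 2945 reads), the multi-synthetase scaffold AIMP2 (-0.02) and EEF1D (-0.16). EIF4G1, EIF4EBP1, EIF4EBP3 and EIF5A2 were not found under those symbols.

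Regulators that act on these factors were followed with a list of 57 symbols, of which 43 were found on 46 entries. Of these entries 16 (34.8%) were called higher and 1 lower, beside the 12.0% and 1.45% of all genes. Among genes with 100 or more reads over both libraries, the nearer comparison, 23.2% were called higher and 2.52% lower. The 42 regulator entries with 10 or more reads in each library had a median log2 ratio of 0.81. Kinases that bear on the cap complex were among the higher ones. MKNK2, a kinase that phosphorylates EIF4E, had 525 abnormal and 96 normal reads (log2 ratio 2.48, 2.17 to 2.80), and its relative MKNK1 had 153 and 136 (0.20, -0.13 to 0.53). RPS6KA3, a ribosomal S6 kinase of the MAP kinase pathway, had 695 and 152 reads (2.22, 1.97 to 2.48), and both it and MKNK2 were called.

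The kinase MTOR works in 2 complexes, of which the one with RPTOR phosphorylates the eIF4E-binding proteins and the other holds RICTOR. RICTOR (96 and 23 reads, log2 ratio 2.09) and the inhibitor DEPTOR (73 and 29, 1.36) were called higher, whereas MTOR itself (491 and 264, 0.93), RHEB (760 and 444, 0.81) and the S6 kinase RPS6KB1 (206 and 111, 0.92) were under the size threshold. RPTOR has 2 entries, one with 42 and 9 reads (2.25, called) and one with 86 and 49 (0.84, not called), so its call rests on the shallower entry. SESN1, a stress-induced restraint of this pathway, had 1065 and 261 reads (2.06, 1.86 to 2.25) and was called.

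Genes around eIF2 phosphorylation and amino acid supply included called and uncalled members. PPP1R15A and PPP1R15B, which direct a phosphatase to EIF2S1, had 199 and 55 reads (log2 ratio 1.89, 1.46 to 2.32) and 89 and 22 reads (2.05, 1.38 to 2.71), and both were called. ATF4, the factor whose translation rises when eIF2 is phosphorylated, had 4709 and 3154 reads and was not called (0.61, 0.54 to 0.67), nor were the kinases EIF2AK3 (0.93) and EIF2AK1 (0.57). ASNS, which makes asparagine, had 386 and 117 reads (1.75, 1.46 to 2.05), PSAT1, of serine synthesis, had 83 and 20 (2.08, 1.39 to 2.78), and PHGDH, of the same pathway, had 67 and 52 (0.40, -0.12 to 0.92). NARS and SARS, which use asparagine and serine, were among the called ligases, although SARS lost its call with the median ratio and with TMM factors. A link between these ligases and the supply enzymes was not tested.

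The remaining calls of the list fell on mRNA and ribosome factors. LARP1, a binder of mRNAs for ribosomal proteins (340 and 117 reads, log2 ratio 1.57), the helicase DDX3X (751 and 187, 2.04), the ribosome recycling factor ABCE1 (159 and 41, 1.99), the eIF5 mimic BZW1 (669 and 312, 1.13), and the ribosome rescue pair HBS1L (528 and 218, 1.31, in the deeper of 2 entries) and PELO (177 and 86, 1.07) were called higher. With the median ratio and with TMM factors, BZW1, HBS1L, PELO and DEPTOR lost their calls, which left 12 of the 16, and totals without mitochondrial transcripts left 13. PDCD4, which inhibits the EIF4A helicases, was the one gene of the list called lower, with 419 reads against 915 or 29.5 and 63.1 RPKM (log2 ratio -1.10, -1.26 to -0.93, FDR 3.93e-39). It was also called lower with the median ratio, TMM factors and totals without mitochondrial transcripts. The poly(A)-binding proteins PABPC1 (0.44) and PABPC4 (0.37) and the elongation kinase EEF2K (-0.08) were not called.

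**Figure D5:**
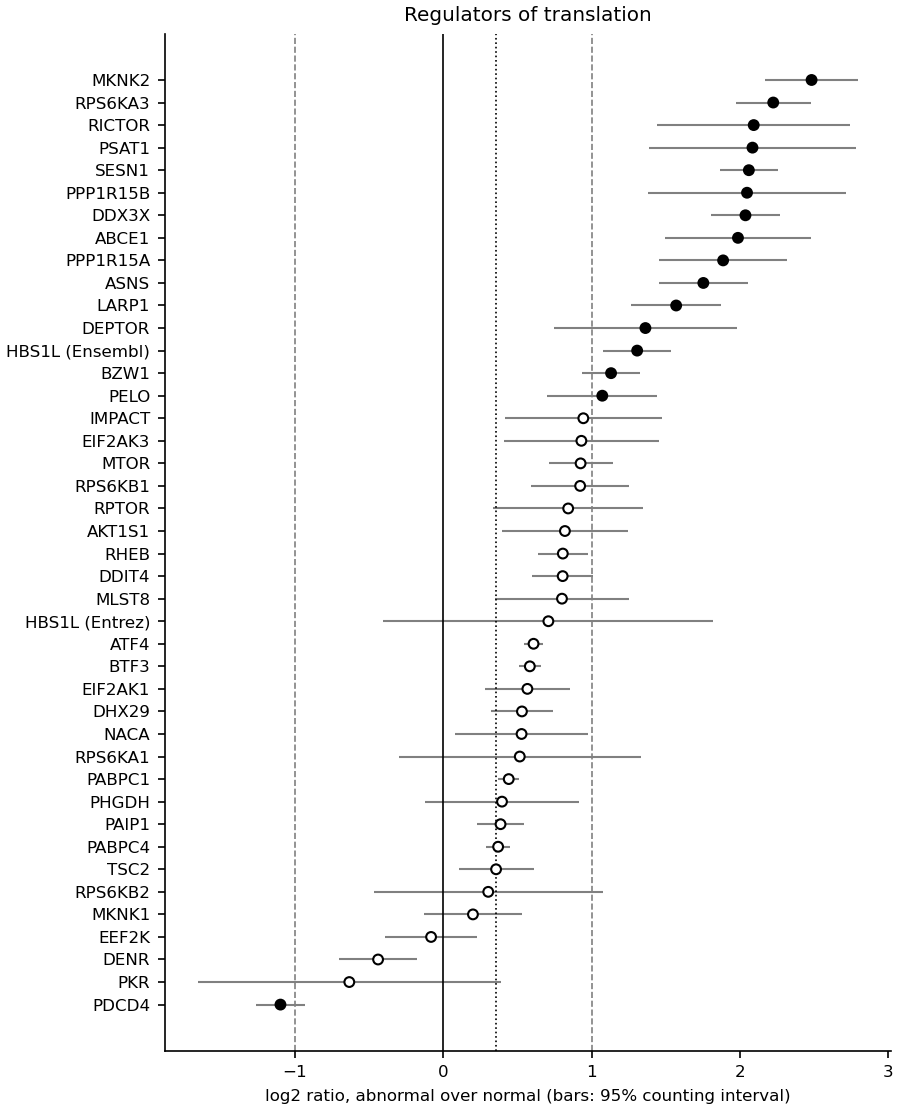
Log2 ratio, abnormal over normal, with 95% counting intervals for the 42 entries of the regulator list that had 10 or more reads in each library. Filled symbols were called, the dotted line is the median of all genes (0.36) and the dashed lines mark the thresholds of 1 and -1. MKNK2 is highest (2.48) and PDCD4, at -1.10, is the only filled symbol left of 0.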

How the data were processed

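RNA-seq reads of 2 pooled libraries, 1 per group, were analysed. The authors enriched mRNA with oligo(dT), aligned the filtered reads to transcripts (SOAPaligner/soap2, up to 2 mismatches, build Sscrofa9) and deposited, per gene, the counts of uniquely mapped reads, the RPKM and the percent of the transcript covered. RPKM recomputed from the deposited counts differed by a relative 3.3e-08 at most. Both tables were joined by gene identifier, and an absent gene was set to 0 reads (an RPKM of 0 to 0.001). The Audic-Claverie test (two-sided by doubling, scipy 1.17.1 under Python 3.11.15) was run on the counts with Benjamini-Hochberg adjustment over 12535 genes. For a single gene, 95% intervals are Wilson intervals on the part of its reads that came from the abnormal library. For a difference between the log2 ratios of 2 genes, they are normal approximations from the read counts of both genes. The code was tested on simulated data. edgeR 4.0.16 (R 4.3.3) gave TMM factors and an exact test with an assumed biological coefficient of variation of 0.2 or 0.4. The genes named were every called member, in each class the 3 highest and 3 lowest ratios (at least 20 reads in both libraries) and the 3 highest RPKM, listed paralogs and every called regulator, and further members were named after their values were seen. Members, lists and tests were chosen with earlier results of these data known. The normal pool counts 4 piglets in the methods and 3 in the labels. Sequences of the members were not analysed here.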

Additional observations from a re-analysis of the deposited data

How the results depend on the processing

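No paired analysis was possible because each group is 1 pooled library and its replicate number is only a name. For the same reason no library could be left out. Scaled by the median ratio of genes with 10 or more reads in each library, 6 of the 13 up-regulated members remained called, 2 of 4 in initiation, 0 of 2 in elongation and release and 4 of 7 in tRNA charging. With TMM factors these counts were 5, 1, 0 and 4, and with totals without mitochondrial transcripts 8 members were called and 0 in elongation and release. The median log2 ratio of the members, 0.76, became 0.40, 0.37 and 0.51 under these 3 scalings, which moved the median of all genes by 0.36, 0.39 and 0.25, and 0.31 after the length correction. That correction, which kept the FDR of the uncorrected test, left 7 members called higher (2, 1 and 4 by class) and called 1 initiation factor, EIF5B, lower. An edgeR exact test that assumes a biological variation of 0.2 called 2 members (IARS and AARS), 0 in initiation, 0 in elongation and release and 2 in tRNA charging. It called 4 regulators higher and 0 lower, beside 1.94% and 0.16% of all genes. At 0.4 all these counts of members and regulators were 0, with 5 members higher and 0 lower at an unadjusted p under 0.05. A size threshold of 0.5 called 23 members higher, 11 of them in initiation, and 25 regulators, beside 17.1% of all genes. Ratios turned negative with the median ratio, TMM factors, totals without mitochondrial transcripts and the length correction, in that order, for EEF1G (-0.17, -0.20, -0.0588 and -0.13), EIF3G (-0.29, -0.32, -0.18 and -0.091), EIF3E (-0.24, -0.28, -0.13 and -0.10), the glutamine ligase LOC100525836 (-0.31, -0.34, -0.20 and -0.42) and FARSB (-0.15, -0.18, -0.0363 and -0.12). Fisher's exact test, an FDR of 0.05, a pseudocount of 1 and, added after the data were seen, the Audic-Claverie test with the libraries exchanged changed the call of none of the 49 named genes, while asking for 10 reads in each library changed 1, the RPTOR entry with 9 reads. The causes were not tested beyond what each alternative's construction shows. Depth leaves wide intervals for members with few reads, such as EIF4E3 with 11 normal reads, and spread between animals cannot be measured in pooled libraries.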
